A study of Mus musculus with 18 samples.

Results

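The comparison described here is IL-4 alone against medium alone in memory CD8 T cells, on arrays of RNA from cells cultured for 20 hours. Its members were chosen by the titles of the samples: 2 arrays of memory cells treated with IL-4 and 2 arrays of memory cells in medium, of 18 arrays in all. The IL-4 cultures held IL-4 at 20 ng/mL and no IL-7, and the medium cultures held neither cytokine. The cells came from C57Bl/6 F5 mice, which carry a transgenic T cell receptor, so that all their CD8 T cells recognise the same peptide. These memory cells, which the labels name TIM, were raised by immunising naive F5 mice with the peptide NP68 on 2 occasions, and were taken on day 45 and sorted from the spleen by flow cytometry. Other memory cells of the same origin were measured directly after sorting (4 ex vivo arrays) or after culture with IL-7 at 10 ng/mL, without IL-4 (2 arrays) or with it (2 arrays). The remaining 6 arrays held naive cells and entered only the choice of probe sets, the filter on low values and the estimate of the spread. The series' design text speaks of 4 sorted memory populations, 2 of which were cultured. It does not say which array came from which, nor that replicates came from separate animals, so a p-value here reflects only how these arrays differed, which may be technical.

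IL-4 is a cytokine of activated helper T cells and other cells of type 2 immunity. Its receptor on T cells pairs the IL-4 receptor alpha chain with the common gamma chain, which the IL-7 receptor uses too. Binding activates the kinases JAK1 and JAK3, which phosphorylate STAT6, and STAT6 dimers enter the nucleus and bind DNA. SOCS proteins, made in answer to the signal, damp it. In CD8 T cells IL-4 is known for supporting survival and for altering the programme of memory and effector genes.

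Values are log2 RMA values, and a change is the difference of group means, IL-4 minus medium, on that log2 scale, with its standard error (SE). A gene was called at an adjusted p under 0.05 among 13770 genes tested. One array needs a remark before any result. The array labelled medium, replicate 2, correlated with ex vivo memory array 2 at r = 0.995 over the genes tested and with medium array 1 at r = 0.956, while medium array 1 correlated with both IL-7 arrays at r = 0.996. Whether it carries RNA of cells cultured in medium is not known, and every value with both medium arrays rests on that label. Calls are therefore given for both medium arrays and for medium array 1 only, with the changes of both for the main probe set of most genes named. With medium array 1 only, the spread of the lone array is taken from the other groups. In every sentence that gives 2 medium values, medium array 1 comes first and the array labelled medium, replicate 2, second. The 3' minus 5' difference of the Gapdh control was 2.86 and 2.81 on the IL-4 arrays, against 3.16 and 2.35 on the medium arrays and 2.07 to 2.62 on the ex vivo arrays. The cells carried the defining markers of CD8 T cells. Cd8a read 13.08 and 13.01 on the IL-4 arrays, against 12.57 and 11.86 on the medium arrays, and none of the 8 CD8 T cell markers passed the test. The mean of 8 markers of cells with MHC class II was 6.48 and 6.71 on the IL-4 arrays, against 6.54 and 7.49 on the medium arrays, and that of 7 myeloid markers was 5.39 and 5.46, against 5.52 and 6.07. Of those myeloid markers Fcgr3, an Fc receptor gene, was called lower in both fits, at 4.07 and 4.20 with IL-4, against 5.63 and 5.68 in medium (changes -1.52 and -1.5, adjusted p = 0.00438 and 0.0222). The part these markers have in the results was not tested, and fewer cells of a type and less RNA per cell cannot be told apart in such bulk samples.

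With both medium arrays, 267 genes were called (1.94% of those tested): 174 rose with IL-4 (1.26%) and 93 fell (0.675%). With medium array 1 only, 212 were called (1.54%), of which 131 rose (0.951%) and 81 fell (0.588%). The sets share 131 genes, 93 that rose in both fits and 38 that fell in both. The median change was 1.91 for these 93 genes with both medium arrays and 1.77 with medium array 1 only, and -1.74 and -1.61 for the 38, beside 0.06 and 0.02 over all genes tested. Since these genes were selected by the test, their medians describe them and support nothing. The IL-4 arrays and the medium arrays did not overlap for 4729 genes, 34.3% of those tested, so non-overlap of 2 against 2 arrays is common here. The counts changed with the arrays that entered the model. Leaving out an IL-4 or a medium array changed the group means as well as the spread. With only the cultured memory arrays in the model, 69 genes rose and 24 fell with both medium arrays, and 200 rose and 162 fell with medium array 1 only. Leaving out IL-4 array 1 left 50 rises and 23 falls with both medium arrays, and leaving out IL-4 array 2 left 70 and 16. Leaving out medium array 1, so that only the array labelled medium, replicate 2, stood for medium, gave 1641 rises and 723 falls.

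**Figure D1:**
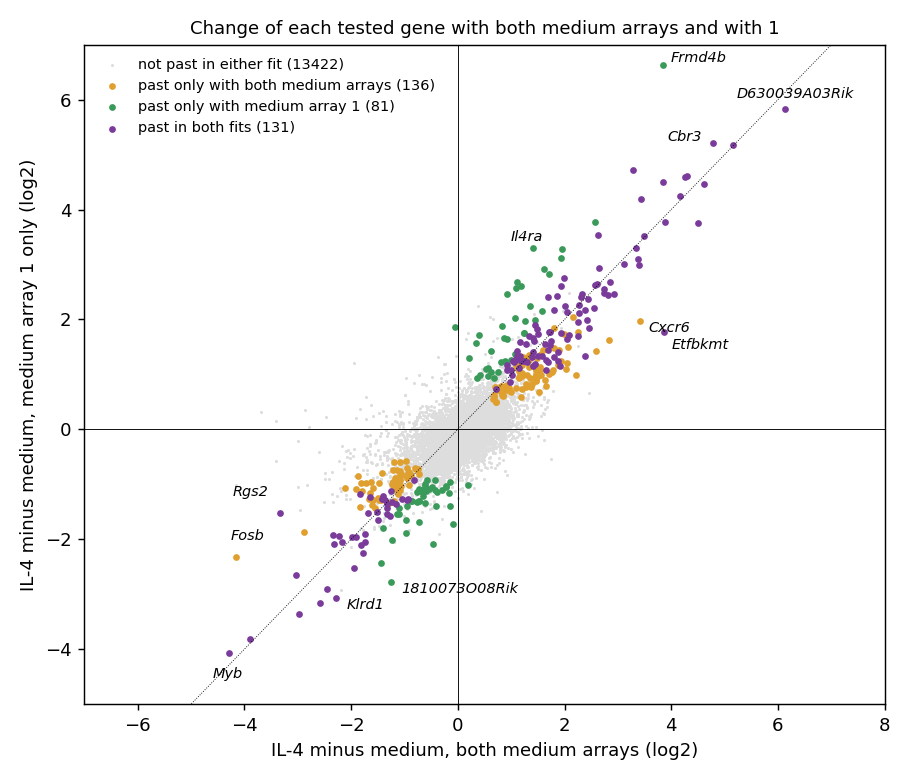
Change with IL-4 of each of the 13770 genes tested (IL-4 minus medium, log2), with both medium arrays on the x axis and with medium array 1 only on the y axis; colours give the fit in which a gene passed the test, with the number of genes in brackets. Of the genes past the test in both fits, D630039A03Rik and Myb lie near the dotted line of equal change and Etfbkmt and Rgs2 lie off it, while Frmd4b and Il4ra, past it with medium array 1 only, lie farther from 0 on the y axis than on the x axis.

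Most of the largest rises were in genes whose medium arrays lay near the bottom of the scale. D630039A03Rik read 10.23 and 10.03 on the IL-4 arrays, against 4.31 and 3.70 on the medium arrays. It changed by 6.12 (SE 0.26, adjusted p = 1.24e-08), and by 5.82 with medium array 1 only (adjusted p = 1.04e-07). Both IL-4 arrays stood far above both medium arrays and the ex vivo range of 4.01 to 4.94. Its medium values lie near the filter value of 4.06, where how much of a reading is background cannot be told, so no fold is given for it or for other genes with a medium value near or below 4.06. Pros1, which encodes protein S, an anticoagulant plasma protein and a ligand of the TAM receptor kinases, read 10.76 and 10.26 with IL-4, against 5.35 and 5.37 in medium. It rose 35.6-fold (log2 change 5.16, SE 0.33, adjusted p = 7.87e-07), and by 5.17 with medium array 1 only (adjusted p = 7.56e-06). The carbonyl reductase gene Cbr3 read 10.12 and 10.05, against 4.88 and 5.73, and rose 27.4-fold with both (adjusted p = 5.98e-07) and 36.8-fold with medium array 1 only (adjusted p = 2.44e-07). Tafa3, of a family of secreted chemokine-like proteins, rose 24.5-fold and, with medium array 1 only, 22-fold (adjusted p = 4.43e-06 and 4.76e-05), and its IL-4 arrays lay further apart, at 10.12 and 9.06, against 5.13 and 4.82. Ncoa7, a nuclear receptor coactivator, was the brightest of the group at 12.11 and 12.40, against 8.49 and 7.03. It changed by 4.49 (adjusted p = 5.41e-06) with both medium arrays and by 3.76 (adjusted p = 3.44e-06) with medium array 1 only. Gm4951, an interferon-inducible GTPase of the immunity-related family, read 8.60 and 7.83, against 3.61 and 4.24, and changed by 4.29 and 4.60 in the 2 fits (adjusted p = 0.000162 and 0.000449).

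The rest of the 15 largest rises had changes between 3.38 and 4.25 with both medium arrays. Myo6, a myosin that moves toward the minus end of actin filaments, read 8.92 and 9.31, against 4.87 and 5.05 (changes 4.16 and 4.25, adjusted p = 7.11e-06 and 4.93e-05, the second of each pair with medium array 1 only). Slc2a6, a glucose transporter of the GLUT family, read 7.97 and 7.75, against 4.09 and 3.86 (changes 3.89 and 3.77, adjusted p = 2.29e-06 and 2.64e-05), and its medium values lay at the filter value. Metrnl, a secreted meteorin-like protein, rose by 3.44 with both medium arrays and by 4.19 with medium array 1 only (adjusted p = 0.000977 and 0.000133). G0s2, an inhibitor of the triglyceride lipase ATGL, rose by 3.40 and 2.99 (adjusted p = 6.36e-05 and 0.000520). Rragd, a Rag GTPase that conveys amino acid signals to mTORC1, rose by 3.38 and 3.10 (adjusted p = 0.000258 and 0.00257). A second, dim probe set of Rragd, with a mean of 4.94, changed by 0.20 with both medium arrays (adjusted p = 0.598). Gm17767, whose medium values lay below the filter value, rose by 4.25 and 4.59, and 5830468F06Rik by 3.48 and 3.53. Of the 15, 13 kept the call in both fits under every alternative run, and Etfbkmt and Il2ra did not. Etfbkmt, a methyltransferase of the electron transfer flavoprotein beta subunit, read 11.27 and 11.19 with IL-4, against 9.47 and 5.27 in medium, so the array labelled medium, replicate 2, set much of its mean: its change was 3.86 with both arrays (adjusted p = 0.0312) and 1.76 with medium array 1 only (adjusted p = 0.0303). The call ended when IL-4 array 1 was dropped (adjusted p = 0.197) and when IL-4 array 2 was (adjusted p = 0.193).

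**Figure D2:**
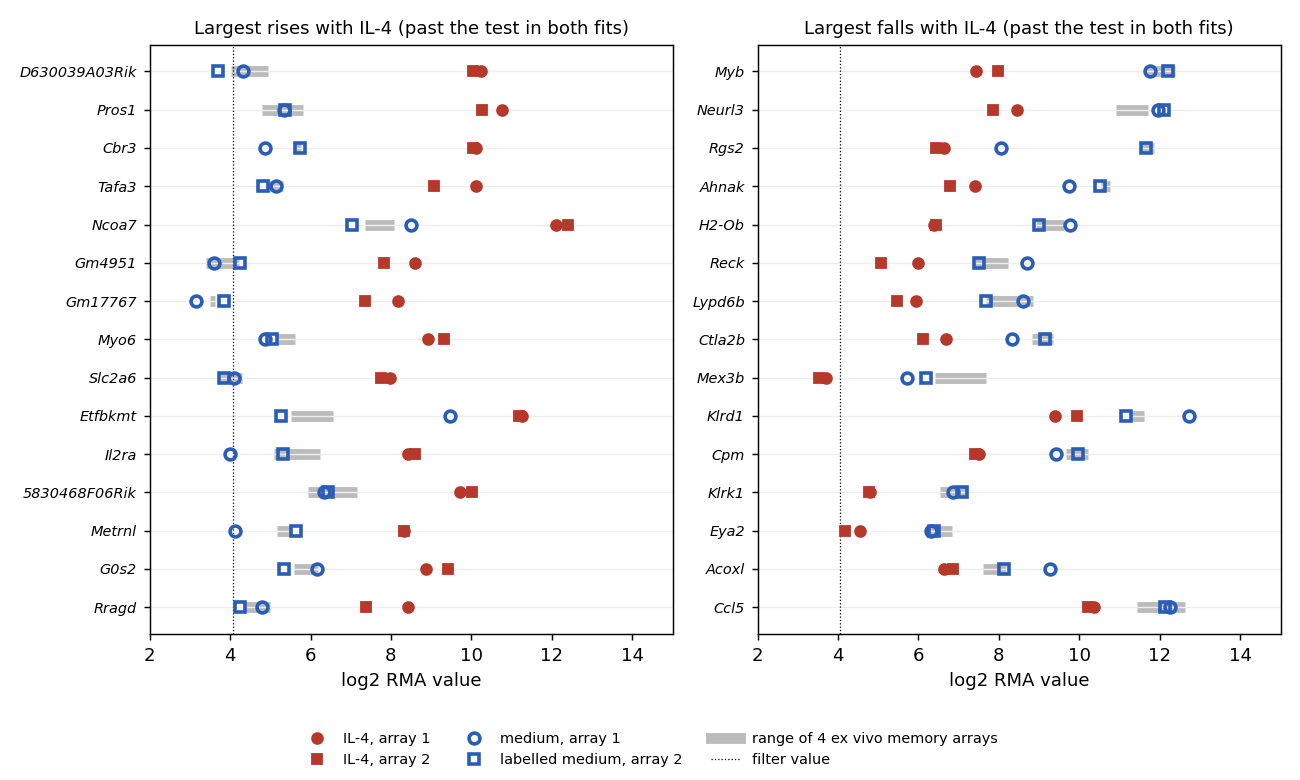
Log2 RMA value of each array for the 15 genes that rose most and the 15 that fell most with IL-4 among those past the test in both fits (filled red, IL-4; open blue, medium; circle, array 1; square, array 2; grey bar, range of the 4 ex vivo memory arrays; dotted line, filter value of 4.06). For all 30 genes both IL-4 arrays lie on one side of both medium arrays, and for Etfbkmt and Rgs2 the medium arrays lie far apart.

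The promoters of the rises were read for TTCNNNGAA, the N3 palindrome of STAT5 and other STATs, for the N4 palindrome, which has 1 base more in its gap and the spacing STAT6 prefers, and for the core of the interferon-stimulated response element. The last was added after the values were known. Both strands were searched in the 250 bases upstream of each start in RefSeq's GRCm38.p6 annotation, which held a promoter for 68 of the 93 rises and 26 of the 38 falls. The N4 palindrome stood in 10 of the 68 rises (14.7%), in 1 of the 26 falls (3.85%) and in 5.63% of all tested genes with a promoter. The N3 palindrome stood in 7 rises (10.3%) and 0 falls, beside 7.16% of all. In gene lists described below, the N4 palindrome stood in 0 of 11 IL-4 receptor and STAT6 pathway genes with a promoter. It stood in 0 of 12 feedback and PIM genes, 4 of 22 interferon-stimulated genes and 1 of 7 immunity GTPase genes. Several members hold more than one motif, and a match is a description of letters, with no binding measured. The strongest rise with a promoter in the table, Pros1, holds both STAT motifs, and Ncoa7 holds the N4 palindrome. They are shown 5′ to 3′ on the strand of the gene, with the motifs in capitals, Pros1 at chr16:62854057-62854306 (+) and Ncoa7 at chr10:30655868-30656117 (-).
Pros1: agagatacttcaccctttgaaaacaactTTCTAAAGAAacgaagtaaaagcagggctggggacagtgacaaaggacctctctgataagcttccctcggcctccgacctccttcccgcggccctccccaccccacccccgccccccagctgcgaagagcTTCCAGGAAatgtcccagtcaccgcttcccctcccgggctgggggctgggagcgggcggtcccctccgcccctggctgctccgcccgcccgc
Ncoa7: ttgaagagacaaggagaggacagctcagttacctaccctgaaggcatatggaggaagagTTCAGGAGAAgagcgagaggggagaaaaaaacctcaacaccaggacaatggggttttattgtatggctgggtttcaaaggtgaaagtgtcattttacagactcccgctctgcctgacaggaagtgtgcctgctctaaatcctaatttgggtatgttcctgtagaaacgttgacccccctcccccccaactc

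The largest falls included the transcription factor gene Myb, which read 7.42 and 7.97 on the IL-4 arrays, against 11.77 and 12.19 on the medium arrays. Myb fell by 4.28 (SE 0.56, adjusted p = 0.000843), that is 19.5-fold, and by 4.07 with medium array 1 only (adjusted p = 0.00589). Its medium arrays lay in the ex vivo range of 11.62 to 12.38, and both IL-4 arrays lay more than 3 log2 units below it. In the fit with medium array 1 only the call ended when IL-4 array 1 was dropped (adjusted p = 0.0589). Neurl3, an E3 ubiquitin ligase, read 8.44 and 7.84, against 11.96 and 12.10, and fell by 3.89 (adjusted p = 0.000162), with a change of -3.82 with medium array 1 only (adjusted p = 0.00133). Ahnak, a very large scaffold protein, read 7.40 and 6.78, against 9.74 and 10.51, and fell by 3.04 (adjusted p = 0.00118), with a change of -2.65 with medium array 1 only (adjusted p = 0.00976). The other 3 probe sets of Ahnak were dim, with means of 3.85 to 4.20, and none of them passed the test.

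A pair of genes of MHC class II peptide loading moved in opposite directions. H2-DMa, a chain of the H2-DM exchange factor, read 13.07 and 13.30 with IL-4, against 10.50 and 10.18 in medium, and rose by 2.85 and, with medium array 1 only, by 2.68 (adjusted p = 7.87e-07 and 7.56e-06). H2-Ob, a chain of H2-O, which inhibits H2-DM, read 6.38 and 6.44, against 9.78 and 9.0, with changes of -2.98 and -3.36 (adjusted p = 1.73e-05 and 7.56e-06). Both kept their calls in both fits under every alternative run. The other 6 tested markers of MHC class II cells did not pass, and the mean of all 8 differed little between the IL-4 arrays and medium array 1.

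The other falls were spread over several kinds of genes. Cpm, a membrane carboxypeptidase, changed by -2.22 with both medium arrays and -1.95 with medium array 1 only (adjusted p = 0.000162 and 0.00163). Reck, a membrane inhibitor of matrix metalloproteinases, changed by -2.58 and -3.16 (adjusted p = 0.00393 and 0.00134). Eya2, a transcriptional coactivator and phosphatase, read 4.54 and 4.19 with IL-4, near the filter value, against 6.32 and 6.38 in medium (changes -1.99 and -1.95). Mex3b, an RNA-binding protein, had IL-4 values below the filter value and changes of -2.33 and -2.09. Lypd6b changed by -2.44 and -2.90, Ctla2b by -2.33 and -1.91, and the acyl-CoA oxidase-like gene Acoxl by -1.95 and -2.52. Rgs2, a regulator of G protein signalling, read 6.63 and 6.43 with IL-4, against 8.05 and 11.65 in medium. Its fall was 3.32 with both medium arrays (adjusted p = 0.0286) and 1.52 with medium array 1 only (adjusted p = 0.0118). With both medium arrays, 10 of the 15 largest falls kept the call with IL-4 array 1 left out, and 7 with array 2 left out. With medium array 1 only, 8 kept it with IL-4 array 1 left out and 8 with array 2 left out. Those kept under every alternative run with both medium arrays were Ahnak, Cpm, H2-Ob, Klrk1, Myb and Neurl3. With medium array 1 only, Ahnak and Myb were not kept under every alternative.

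Of 13 tested genes of the IL-4 receptor and its STAT6 pathway, 1 rose with both medium arrays and 1 with medium array 1 only, and none fell in either fit. Over all genes tested, 1.26% rose and 0.675% fell with both medium arrays. Those shares stand beside the counts of this list and of the lists that follow. The list's median change was 0.10 and 0.16. Il4ra, the gene of the receptor's own alpha chain, read 12.60 and 12.59 on the IL-4 arrays, against 9.32 and 11.98 on the medium arrays. The IL-4 arrays lay 3.28 above medium array 1 (SE 0.40, adjusted p = 0.000449, a 9.71-fold rise), while with both medium arrays the change of 1.95 missed the threshold (adjusted p = 0.140). The ex vivo arrays read 11.06 to 11.90. Its other 2 probe sets in the table rose by 3.11 and 2.54 in the same fit (adjusted p = 0.0165 and 0.00595). The kinases and the transcription factor did not pass in either fit. Jak1 read 11.44 and 11.72, against 12.22 and 11.70; Jak3 read 8.61 and 8.38, against 7.73 and 8.83; and Stat6 read 9.25 and 9.47, against 9.62 and 9.14. The common chain gene Il2rg was not analysed here.

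A list of known feedback inhibitors and PIM kinases held 2 rises of 16 tested with both medium arrays. It takes in the SOCS family and the phosphatase gene Dusp10. The median change was 0.24 with both medium arrays and 0.51 with medium array 1 only. Socs2 was the one called in both fits. It read 7.81 and 7.48 with IL-4, against 4.35 and 4.25 in medium, and changed by 3.34 (SE 0.45, adjusted p = 0.00117) and, with medium array 1 only, by 3.30 (adjusted p = 0.00603). Socs1, the classical inhibitor of JAK1 signalling, read 7.85 and 8.36, against 7.02 and 6.26, and passed only with both medium arrays (change 1.46, adjusted p = 0.0229). With medium array 1 only its change was 1.09 (adjusted p = 0.177). With both medium arrays its adjusted p was 0.0690 once IL-4 array 1 was dropped. Cish, a STAT5-induced SOCS member, read 9.17 and 9.77, against 6.35 and 8.71, and rose by 3.12 with medium array 1 only (adjusted p = 0.00388), where both gave 1.94 (adjusted p = 0.142). Socs3 read 11.86 and 11.80, against 9.37 and 12.45, and rose by 2.46 in that fit alone (adjusted p = 0.00133), with a change of 0.92 (adjusted p = 0.595) with both. For Cish and Socs3 the array labelled medium, replicate 2, lay near the IL-4 arrays and in or near the ex vivo ranges of 8.55 to 9.06 and 12.23 to 12.43. The survival kinase gene Pim2 and the MAP kinase phosphatase gene Dusp10 did likewise, rising by 2.25 and 3.31 with medium array 1 only (adjusted p = 0.00309 and 7.56e-06), where both gave 1.35 and 1.40.

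Of 14 tested genes described as IL-4 or STAT6 targets, 2 rose in each fit and none fell. The gene in both counts was Xbp1, a transcription factor of the secretory pathway and unfolded protein response, which read 12.93 and 13.04 with IL-4, against 10.23 and 11.76 in medium. Xbp1 changed by 1.99 (adjusted p = 0.0229) and by 2.75 with medium array 1 only. With both medium arrays its call ended with either IL-4 array left out, with array weights and with only the cultured memory arrays. Ikzf3, the lymphoid factor Aiolos, passed only with both medium arrays (change 1.17, adjusted p = 0.0211; 0.99, adjusted p = 0.139 with medium array 1 only), and its arrays read 9.30 and 9.44, against 8.38 and 8.02. Nfil3, a bZIP repressor, read 6.35 and 6.05, against 4.34 and 8.17, so that it rose by 1.86 against medium array 1 (adjusted p = 0.0114), changed by -0.05 with both (adjusted p = 0.988), and lay below the array labelled medium, replicate 2. Eomes, the T-box factor Eomesodermin that IL-4 is known to induce in CD8 T cells, read 9.51 and 9.15, against 7.33 and 7.06. Its change of 2.13 missed the threshold with both medium arrays (adjusted p = 0.143) and with medium array 1 only (change 2.00, adjusted p = 0.430). A second, dimmer Eomes probe set passed in both fits, by 1.51 (adjusted p = 0.0272) and 1.91 (adjusted p = 0.0136). The sister factor Tbx21 read 8.34 and 7.84, against 7.40 and 8.15, with overlapping groups.

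Of 22 tested genes of the IL-7 and STAT5 response, 4 rose and 1 fell with both medium arrays, and 4 rose and 2 fell with medium array 1 only, with median changes of 0.16 and 0.31. Of 21 tested cytokine receptor genes, 2 rose and 0 fell with both medium arrays, and 2 rose and 2 fell with medium array 1 only, with median changes of 0.03 and -0.03. Il2ra, the high-affinity IL-2 receptor chain CD25, read 8.41 and 8.60 with IL-4, against 4.00 and 5.32 in medium (log2 change 3.85, SE 0.88, adjusted p = 0.0363; 4.50, adjusted p = 0.0429 with medium array 1 only). It missed the threshold without either IL-4 array, with an adjusted p of 0.198 when array 1 was dropped and 0.236 when array 2 was. A second, dim probe set of Il2ra changed by 0.78 (adjusted p = 0.493). Il10ra, a chain of the IL-10 receptor, read 7.44 and 7.04, against 6.15 and 5.24, and rose only with both medium arrays (change 1.54, adjusted p = 0.0229; 1.09, adjusted p = 0.177 with medium array 1 only). Il7r, the IL-7 receptor alpha chain, read 12.20 and 12.33, against 13.41 and 11.88. It changed by -0.38 with both medium arrays (adjusted p = 0.710) and fell by 1.14 with medium array 1 only. The call in the latter fit ended with the replicate block, the probe set with the largest variance or arrays centred on their medians. It also ended with either IL-4 array left out. The IL-18 receptor chain gene Il18r1 fell by 1.55 in that fit alone (adjusted p = 0.0221; -1.10, adjusted p = 0.0959 with both). Igf1r, the receptor of insulin-like growth factor 1, fell by 1.26 and 1.57 (adjusted p = 0.0350 and 0.0210), but its other 4 probe sets did not pass.

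Bcl2, which protects lymphocytes from apoptosis, was the member of the 16 tested BCL2 family genes that rose in both fits. It read 11.90 and 11.43 with IL-4, against 9.53 and 9.72 in medium, and changed by 2.04 (SE 0.38, adjusted p = 0.0109), 4.12-fold, and by 2.14 with medium array 1 only (adjusted p = 0.0290). The IL-4 and medium arrays did not overlap, and of its 4 other probe sets 2 passed with both medium arrays and 3 with medium array 1 only. With both medium arrays the call was lost without IL-4 array 1 (change 1.81), with array weights and with only the cultured memory arrays. With medium array 1 only it was lost without either IL-4 array (change 1.90 without array 1 and 2.38 without array 2). Lta, the cytokine lymphotoxin alpha, read 7.87 and 7.13, against 5.76 and 5.28, and rose only with both medium arrays (change 1.98, adjusted p = 0.0110; 1.74, adjusted p = 0.0698 with medium array 1 only).

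The NK-type receptors expressed by memory CD8 T cells gave 2 falls and no rise in 13 tested genes in both fits, with median changes of -0.28 and -0.16. Klrk1, which encodes the activating receptor NKG2D, read 4.80 and 4.78 on the IL-4 arrays, against 6.85 and 7.07 on the medium arrays. It fell by 2.17 (SE 0.23, adjusted p = 0.000136), 4.50-fold, and by 2.06 with medium array 1 only (adjusted p = 0.00141). Both IL-4 arrays lay below the ex vivo range of 6.53 to 7.24, and the call held under every alternative run. Klrd1, which encodes CD94, read 9.38 and 9.94, against 12.73 and 11.15. It fell by 2.28 (SE 0.41, adjusted p = 0.00931) and fell by 3.07 with medium array 1 only (adjusted p = 0.000242), and with both medium arrays the call ended when IL-4 array 1 was dropped (adjusted p = 0.140). Hcst, the gene of the NKG2D adaptor DAP10, did not pass, at 9.32 and 9.38, against 9.38 and 10.32.

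The 21 tested cytotoxic and effector genes gave 1 fall and no rise with both medium arrays, and 1 fall and 1 rise with medium array 1 only, with median changes of -0.14 and 0.17. Ccl5, a chemokine of memory and effector CD8 T cells, read 10.35 and 10.21, against 12.25 and 12.13, and fell by 1.91 (SE 0.34, adjusted p = 0.00998) and by 1.97 (adjusted p = 0.0292). The fall missed the threshold when IL-4 array 1 was left out (adjusted p = 0.0843) or array 2 (adjusted p = 0.0998). Gzma, the granzyme A gene, read 9.18 and 9.46 with IL-4, against 5.54 and 7.96 in medium. It rose 13.7-fold with medium array 1 only (log2 change 3.78, SE 0.55, adjusted p = 0.00202) and missed the threshold with both medium arrays (change 2.57, adjusted p = 0.0584). Gzmb read 6.83 and 6.07, against 4.45 and 7.13, and Prf1, the perforin gene, 6.34 and 6.89, against 6.40 and 7.99, with neither past the test. The interferon gamma gene Ifng read 10.38 and 10.21, against 10.05 and 11.99, with one medium value on each side of the IL-4 arrays.

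Of 32 tested interferon-stimulated genes, 9 rose with both medium arrays and 8 with medium array 1 only, and none fell in either fit. With both medium arrays, 1.26% of all genes tested rose and 0.675% fell. The list's median change was 1.13 and 1.20, beside 0.06 and 0.02 over all genes tested, and 28 and 29 of the 32 changes were above 0, as were 59.0% and 52.5% of all genes tested. The mean of the list was 9.25 and 8.87 on the IL-4 arrays, against 7.98 and 8.01 on the medium arrays, so the IL-4 and medium arrays did not overlap. Rtp4, a membrane-protein chaperone induced by interferon, read 11.03 and 10.48, against 8.10 and 8.18, and rose 6.13-fold (log2 change 2.62, SE 0.30, adjusted p = 0.000258; 2.65, adjusted p = 0.00162 with medium array 1 only). Stat2, a subunit of the interferon-activated factor ISGF3, read 7.37 and 7.09, against 5.46 and 5.53, and rose by 1.74 and 1.77 in the 2 fits (adjusted p = 0.00678 and 0.0238). Zbp1, a sensor of Z-form nucleic acids, and Xaf1, a pro-apoptotic partner of XIAP, rose by 2.02 and 2.05 with both medium arrays and by 2.24 and 1.65 with medium array 1 only. With both medium arrays, second probe sets of Rtp4 and Zbp1 passed (adjusted p = 0.0045 and 0.0073). Those of Stat2 and Xaf1 did not (changes 0.90 and 1.70, adjusted p = 0.167 and 0.0714). Parp9 rose by 1.5 and 1.34. Its partner Dtx3l, a ubiquitin ligase, rose by 1.5 with both medium arrays only, with a change of 0.97 (adjusted p = 0.104) with medium array 1 only. Irf7 and Irf9, factors of the interferon pathway, passed only with medium array 1 (changes 1.76 and 1.64, where both medium arrays gave 1.25 and 0.92). Of the 9 calls with both medium arrays, 3 remained without IL-4 array 1, 5 without IL-4 array 2 and 3 with array weights.

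The guanylate binding proteins and immunity-related GTPases, cell-autonomous defence proteins against intracellular microbes, were the list with the highest share of calls: 7 of 11 tested rose with both medium arrays and 6 with medium array 1 only, beside 1.26% and 0.951% of all genes tested. Their median changes were 1.46 and 1.73, and all 11 changes were above 0 in both fits, as were 59.0% and 52.5% of all genes. The list's mean was 11.22 and 10.93 with IL-4, against 9.22 and 9.45 in medium, again without overlap. Ifi47 read 12.72 and 12.49, against 10.34 and 10.30, and rose 4.85-fold (log2 change 2.28, SE 0.21, adjusted p = 2.23e-05; 2.26, adjusted p = 0.000242 with medium array 1 only). Gbp2 read 12.62 and 12.46, against 10.12 and 10.34, and rose 4.94-fold (changes 2.31 and 2.41, adjusted p = 0.00380 and 0.0124), and its second probe set rose by 2.41 (adjusted p = 0.00243). Igtp, the GTPase IRGM3, read 13.48 and 13.38, against 12.18 and 12.32, with smaller rises of 1.18 and 1.25 (adjusted p = 0.00318 and 0.0107), and Irgm1 rose by 1.5 and 1.73 (adjusted p = 0.0167 and 0.0193). Gbp6 rose by 1.45 and 1.89 (adjusted p = 0.0230 and 0.00522). Gbp7 rose by 1.46 (adjusted p = 0.00724) with both medium arrays only, with a change of 1.09 (adjusted p = 0.0583) with medium array 1 only. Of the 7 calls, 2 remained with IL-4 array 1 left out and 5 with array 2 left out. Ifi47 also stands in the interferon-stimulated list. Of the 19 genes that the GTPase list names, only the 11 tested had a probe set with 1 gene symbol. Its share of calls covers that part only.

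The 250 bases upstream of 6 of the 7 genes of this list with a promoter held the core of the interferon-stimulated response element on one of the strands, as did 8 of 22 interferon-stimulated genes, beside 3.18% of all tested genes. That core stood in 6 of the 68 rises read above (8.82%) and in 1 of the 26 falls (3.85%). Gbp3 and Irgm2 of the GTPase list held the core and were called in neither fit. Both lists were chosen with earlier results known, so their shares describe the lists and not the response to IL-4. Matches of different motifs may overlap. The promoters of Stat2 and Igtp are shown because they carry this motif beside a STAT-type palindrome, and that of Gbp2 because it carries the motif alone. In capitals stand the core of the response element, on either strand, and any N4 or N3 palindrome. Stat2 lies at chr10:128270248-128270497 (+), Gbp2 at chr3:142620413-142620662 (+) and Igtp at chr11:58199306-58199555 (+), in GRCm38.p6.
Stat2: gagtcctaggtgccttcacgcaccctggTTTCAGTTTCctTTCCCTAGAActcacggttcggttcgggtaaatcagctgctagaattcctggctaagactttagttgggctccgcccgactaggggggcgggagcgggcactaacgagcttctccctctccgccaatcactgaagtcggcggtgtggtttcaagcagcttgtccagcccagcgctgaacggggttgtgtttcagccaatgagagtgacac
Gbp2: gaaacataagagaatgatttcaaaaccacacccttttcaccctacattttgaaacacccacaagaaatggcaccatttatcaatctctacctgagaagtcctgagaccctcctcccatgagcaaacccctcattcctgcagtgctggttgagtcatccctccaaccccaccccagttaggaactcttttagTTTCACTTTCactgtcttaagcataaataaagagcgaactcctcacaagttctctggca
Igtp: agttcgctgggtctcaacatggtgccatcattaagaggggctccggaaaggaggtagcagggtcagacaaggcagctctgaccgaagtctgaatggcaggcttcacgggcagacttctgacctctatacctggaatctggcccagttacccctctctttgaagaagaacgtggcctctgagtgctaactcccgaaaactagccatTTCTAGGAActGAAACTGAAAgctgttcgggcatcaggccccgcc

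The classical genes of MHC class I antigen processing gave 0 calls in 16 tested in either fit, with median changes of 0.55 and 0.42, and 15 and 16 of the changes above 0, where 59.0% and 52.5% of all genes were. No member passed, so nothing is read from these signs. The list's mean was 11.96 and 11.92 with IL-4, against 11.53 and 11.49 in medium.

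**Figure D3:**
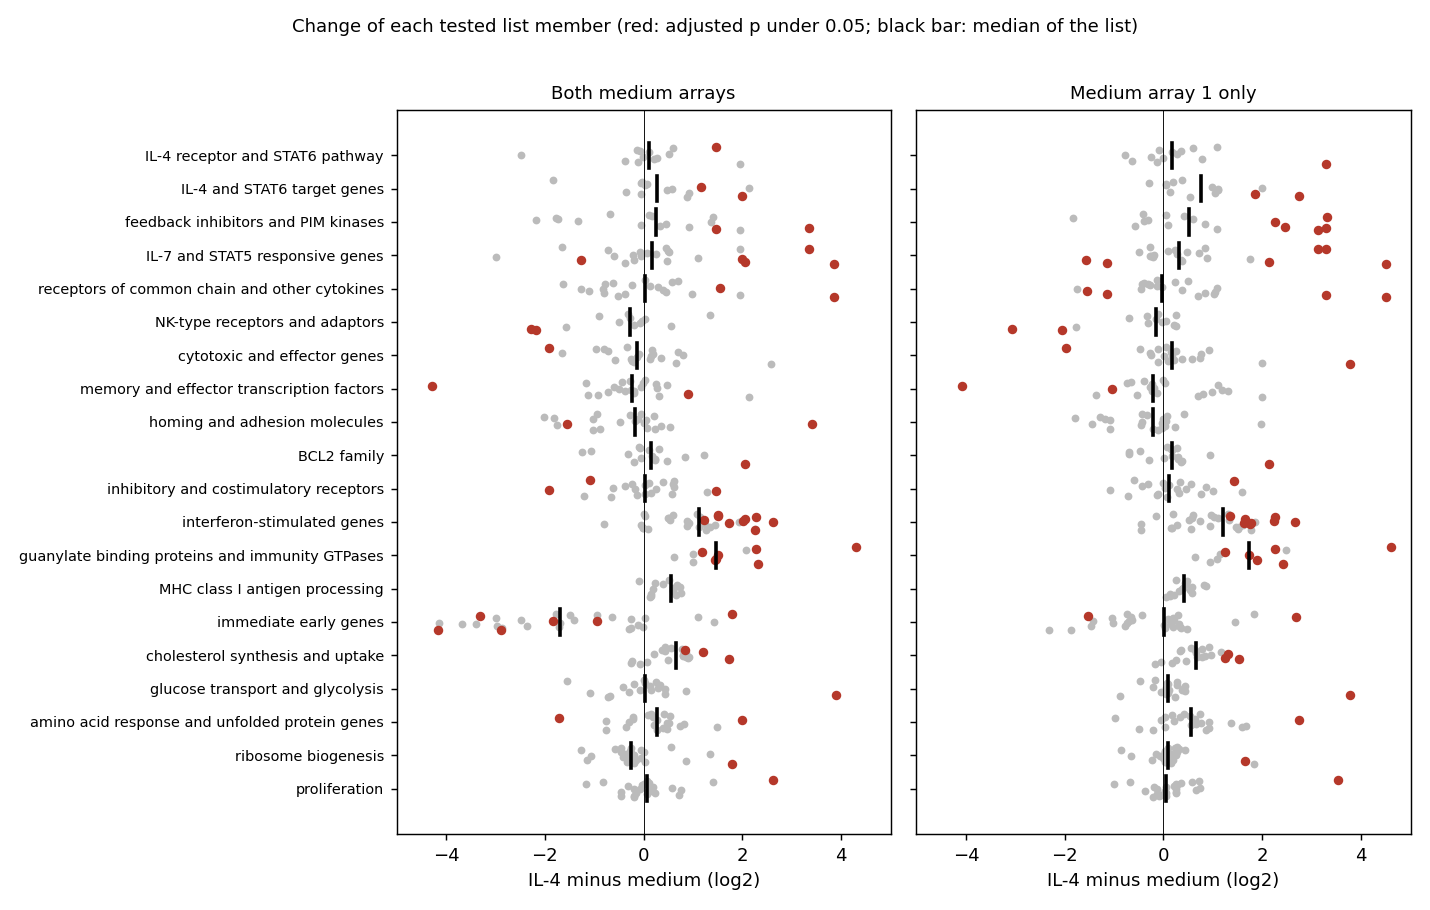
Change with IL-4 (IL-4 minus medium, log2) of each tested member of 20 gene lists, with both medium arrays at left and medium array 1 only at right; red points passed the test and black bars are list medians. The interferon-stimulated, guanylate binding protein and cholesterol lists lie mostly above 0 in both panels, while the immediate early genes lie mostly below 0 at left (median -1.70) and around 0 at right (median 0.01).

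Of 20 tested genes of cholesterol synthesis and uptake, 3 rose in each fit, none fell, and the median change was 0.66 and 0.67. Mvd, mevalonate diphosphate decarboxylase, was in both counts. It read 8.64 and 8.78, against 7.18 and 6.79, and changed by 1.72 (adjusted p = 0.00150) and 1.53 (adjusted p = 0.0115). Msmo1 and Ebp passed with both medium arrays only (changes 1.20 and 0.83, and 1.17 and 0.63 in the other fit). Idi1 and Cyp51 passed with medium array 1 only (changes 1.25 and 1.30, and 0.89 and 0.21 with both). In glycolysis, Slc2a6 above was the 1 call of 19 tested, with list medians of 0.03 and 0.10. The amino acid response and unfolded protein list rose in Xbp1 and fell in Dnajb9, an ER co-chaperone, which read 9.36 and 9.05, against 10.19 and 11.67, and passed only with both medium arrays (change -1.72, adjusted p = 0.0367; -0.98, adjusted p = 0.286 with medium array 1 only). Of 26 genes of ribosome biogenesis, the nucleolar protein gene Nop56 passed with medium array 1 only (change 1.66, adjusted p = 0.00166; 0.86, adjusted p = 0.296 with both), and Myc, its transcription factor member, with both medium arrays only. Myc read 9.44 and 9.22, against 7.50 and 7.57, with changes of 1.80 (adjusted p = 0.0230) and 1.84 (adjusted p = 0.0698). Of 25 proliferation genes, Cdk6, a kinase of the G1 phase, was the 1 rise in each fit. It read 11.13 and 10.39, against 7.23 and 9.05, and changed by 2.62 (adjusted p = 0.0377) and by 3.53 with medium array 1 only. With both medium arrays the Cdk6 call ended with either IL-4 array left out, with array weights and with only the cultured memory arrays.

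Homing and costimulatory molecules gave few calls. Of 21 tested homing and adhesion genes, 1 rose and 1 fell with both medium arrays. Of 21 tested inhibitory and costimulatory genes, 1 rose and 2 fell with both medium arrays. Cxcr6, a chemokine receptor of tissue-homing T cells, read 9.20 and 9.22 with IL-4, against 7.24 and 4.35 in medium. It rose by 3.42 with both medium arrays (adjusted p = 0.0287), while its change was 1.97 (adjusted p = 0.192) with medium array 1 only. Cxcr5, the receptor of follicular homing, read 6.18 and 6.80, against 7.93 and 8.17, and fell by 1.56 with both medium arrays only (adjusted p = 0.0118), the other fit giving -1.44 (adjusted p = 0.0656). The costimulatory receptor gene Cd28 read 9.01 and 9.40, against 10.29 and 11.94, and fell by 1.91 with both medium arrays only (adjusted p = 0.0363), the other fit giving -1.08 (adjusted p = 0.277). Cd86, a costimulatory ligand, fell by 1.08 with both medium arrays only (adjusted p = 0.0350), the other fit giving -0.60 (adjusted p = 0.267). Nt5e, the ectonucleotidase CD73, rose by 1.46 with both medium arrays only (adjusted p = 0.0218), the other fit giving 1.0 (adjusted p = 0.171). The inhibitory ligand gene Cd274 rose by 1.43 with medium array 1 only (adjusted p = 0.0167), where both gave 0.62 (adjusted p = 0.528). The 22 tested memory and effector transcription factors, Myb among them, gave 1 rise and 1 fall with both medium arrays. Prdm1, the repressor BLIMP1, rose by 0.89 with both medium arrays only (adjusted p = 0.0345), the other fit giving a change of 0.80. Lef1 fell by 1.05 with medium array 1 only (adjusted p = 0.0156), where both gave -0.49 (adjusted p = 0.459).

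Beside the 131 genes called in both fits, 136 passed only with both medium arrays and 81 only with medium array 1. The median gap between the medium arrays was 0.50 in the 136 genes and 1.35 in the 81, against 0.47 in the 131 called in both fits and 0.34 over all genes. The genes were sorted by their calls with and without the array labelled medium, replicate 2. Their gaps therefore follow in part from that selection and describe it. A gene could pass in 1 fit with a small gap between the medium arrays, as Myc and Nipa1 did, whose changes were alike in both fits while the SE was larger with medium array 1 only (0.46 against 0.37 for Myc, 0.55 against 0.45 for Nipa1). Immediate early genes, whose mRNA is known to rise quickly after a stimulus, included several of the 136. Fos read 9.46 and 8.57 with IL-4, against 10.88 and 12.93 in medium, and Fosb 6.02 and 4.87, against 7.76 and 11.44, both falling with the 2 medium arrays (changes -2.89 and -4.16, adjusted p = 0.0292 and 0.0363) and not past with medium array 1 only (adjusted p = 0.229 and 0.266). Of 29 such genes tested, 5 fell and 1 rose with both medium arrays, and 1 fell and 1 rose with medium array 1 only. The median change was -1.70 and 0.01. The mean of the list was 8.13 and 7.96 with IL-4, against 8.28 and 10.87 in medium, with the ex vivo arrays at 10.84 to 11.29, so that the array labelled medium, replicate 2, lay in the ex vivo range and medium array 1 near the IL-4 arrays. Other genes of the 136 were Tmie, Tmem140, Ifit1, an interferon-induced RNA-binding protein, Slfn1 and Nipa1, whose changes ran from 2.15 to 2.83.

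Of the 8 largest genes past only with medium array 1, Frmd4b, a scaffold protein with a FERM domain, read 10.87 and 10.52 with IL-4, against 4.06 and 9.63 in medium, and its ex vivo range was 9.81 to 10.21. It rose by 6.63 against medium array 1 (adjusted p = 3.34e-05) and by 3.85 with both medium arrays (adjusted p = 0.128). The IL-4 arrays and the array labelled medium, replicate 2, both stood near the ex vivo values, and medium array 1 at the filter value. Sema7a, a membrane semaphorin, read 8.73 and 7.96, against 5.42 and 8.02, and Fabp5, a fatty acid binding protein, 8.78 and 8.39, against 5.76 and 7.99. They changed by 2.93 and 2.82 (adjusted p = 0.00349 and 0.00701), where both medium arrays gave 1.62 and 1.71. The reverse case was 1810073O08Rik, which fell by 2.78 against medium array 1 and read 3.60 and 3.64 with IL-4, against 6.40 and 3.36 in medium.

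**Figure D4:**
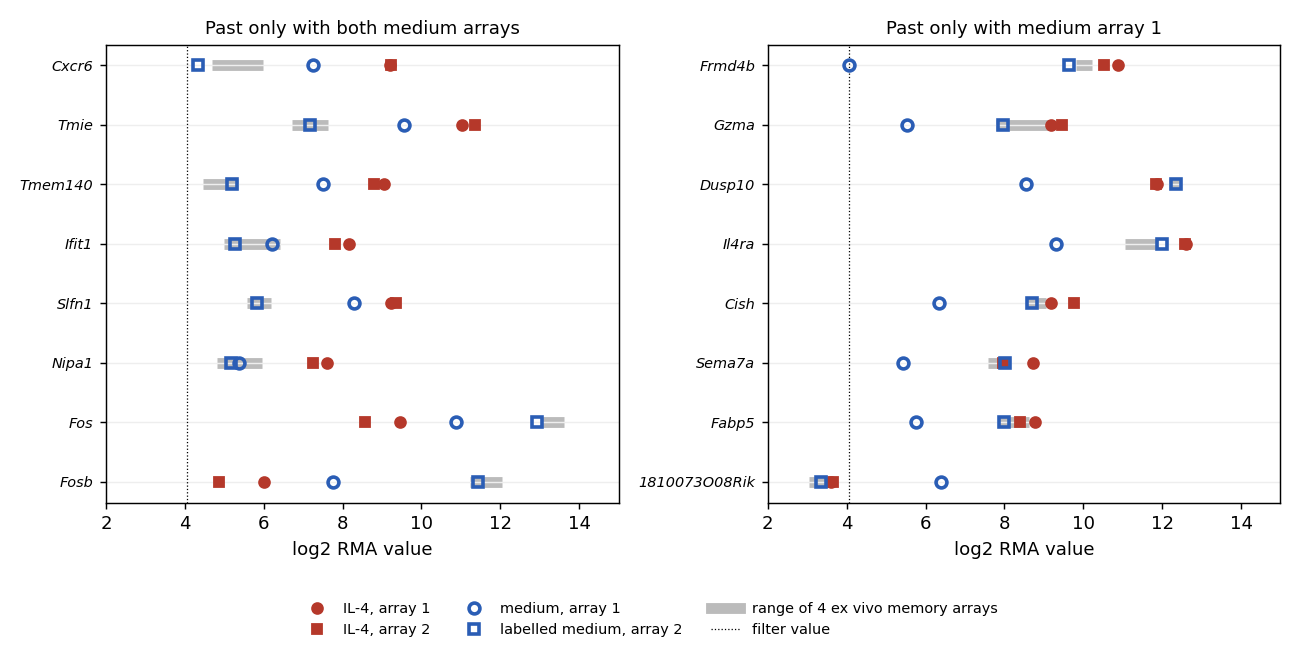
Log2 RMA value of each array for the 8 largest genes past the test only with both medium arrays (left) and only with medium array 1 (right), in the order of their change with IL-4; symbols, colours and lines mark IL-4 and medium arrays, the ex vivo range and the filter value as in the legend. At right, medium array 1 lies apart from the other 3 arrays for Frmd4b, Dusp10 and 1810073O08Rik, which lie near the ex vivo bar.

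With IL-7 present, the same IL-4 comparison can be made between the arrays with IL-4 and IL-7 and those with IL-7 only, which share no array with the medium comparison. Their RMA arrays do not overlap for 55.8% of the genes tested. Of the 93 genes that rose in both fits, 92 were higher without overlap, and all 38 falls were lower without overlap, beside 34.3% higher and 21.5% lower without overlap over all genes tested. The exception, Klhdc1, was singled out after its values were seen, and read 10.19 and 10.28 with IL-4 and IL-7, against 10.19 and 9.57 with IL-7. The median change of the rises with IL-7 was 1.67 and of the falls -1.32, where without IL-7 it was 1.91 and -1.74 with both medium arrays. The difference between the responses, tested as an interaction, passed for 0 genes with either set of medium arrays by limma, at a smallest adjusted p of 0.838 with both. At an unadjusted p under 0.05, 650 genes (4.72%) differed with both medium arrays and 234 (1.70%) with medium array 1 only. So at 2 arrays per group no difference between the IL-4 responses was detectable in single genes, which does not show that the responses were alike. Without medium array 1 the interaction passed for 927 genes upward and 371 downward. Myo6 had the smallest interaction p of the 131 genes. It read 8.56 and 9.08 with IL-4 and IL-7, against 7.65 and 6.63 with IL-7 only, and the response without IL-7 exceeded that with it by 2.48 (unadjusted p = 0.000110, adjusted p = 0.838). With medium array 1 only the difference was 2.57 for Myo6. Etfbkmt differed by 3.10 with both medium arrays and 1.0 with medium array 1 only, and Rgs2 by -2.56 and -0.76, none of them past the threshold.

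**Figure D5:**
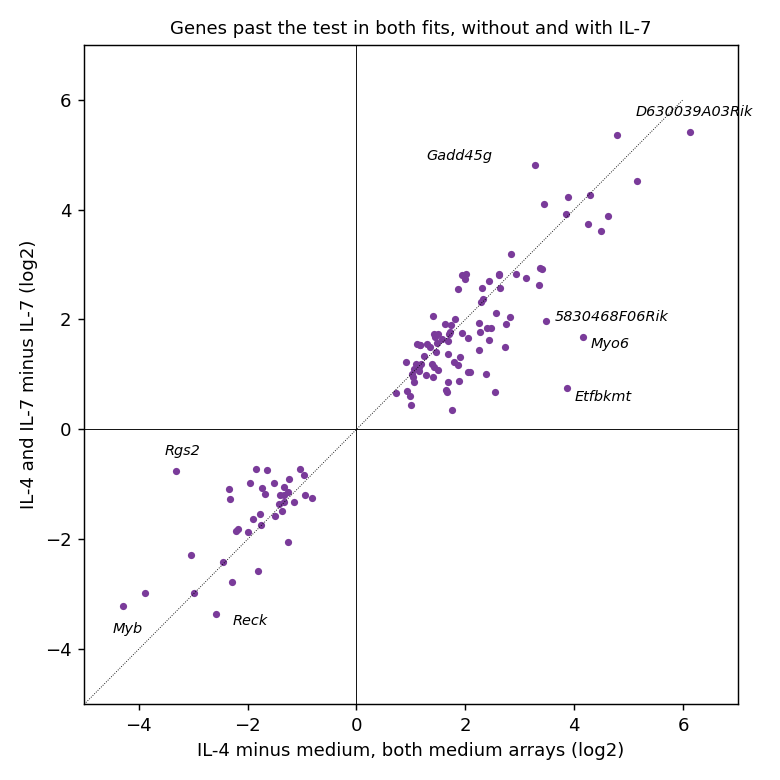
Change with IL-4 of the 131 genes past the test in both fits, without IL-7 (x axis, IL-4 minus medium, both medium arrays, log2) and with IL-7 (y axis, IL-4 and IL-7 minus IL-7, log2); the dotted line marks equal change. All 131 genes have the same sign on both axes, and Myo6, Etfbkmt and Rgs2 lie nearer 0 on the y axis than on the x axis.

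IL-4 alone was also compared with the IL-7 arrays, which share no array with medium. The IL-4 arrays were those of the medium comparison, so these values are given beside it and are no independent check of it. Here 175 genes differed (1.27%), of which 121 were higher (0.879%) and 54 lower (0.392%) in the IL-4 arrays. D630039A03Rik read 10.23 and 10.03 with IL-4, against 4.97 and 4.82 with IL-7. Il4ra read 12.60 and 12.59, against 9.73 and 9.45, and Frmd4b 10.87 and 10.52, against 4.22 and 3.81. In these genes the IL-7 arrays were close to medium array 1. Gzma read 9.18 and 9.46, against 5.04 and 5.57, and Klrk1 4.80 and 4.78, against 6.27 and 6.73.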

How the data were processed

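RNA levels were read on Affymetrix mouse arrays; the authors deposited log2 RMA values, 1 per probe set and array, in a table with sample columns. RMA and limma are named in the submitters' processing notes, without versions. Per the labels' protocols, RNA was amplified and biotin-labelled by in vitro transcription. RMA adjusts background and equalises the arrays' distributions, so a shift of all genes together would not show. Precision is limited by how few arrays each group has. Of 45101 probe sets, 34958 had 1 gene symbol in the array annotation, and 932 with several and 9211 with none were left out. The probe set with the highest mean over 18 arrays stood for each of 18194 genes. A gene was tested where at least 2 arrays exceeded 4.06, the 40th percentile of the table, which left 13770 genes; that value is no measured background.

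One linear model over 18 arrays in 8 groups was fitted with limma 3.58.1 in R 4.3.3 (moderated variances, two-sided tests, Benjamini-Hochberg adjustment over all tested genes, threshold 0.05), and over 17 arrays without the array labelled medium, replicate 2. A replicate block was tried as an alternative, because no label ties a number to a shared population. The scripts were tested on simulated data. The IL-4 comparison, its members and the gene lists were chosen with earlier results of these data known, so list counts are descriptions. Named genes were the 15 largest rises and falls past the threshold in both fits, the 8 largest past only 1 of the fits, and list members past the threshold, with a set of IL-4 pathway and effector genes always named. The probe annotation was matched to RefSeq's GRCm38.p6 table for names, and promoters are RefSeq's. Alternatives were the filter, the choice of probe set, the arrays in the model, array weights, the prior, centring, the block and leaving out each array.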

Additional observations from a re-analysis of the deposited data

Results flagged for a closer look

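The flagged values all concern single ex vivo memory arrays, which enter the account of the medium arrays as a range. In each, 1 of the 4 ex vivo arrays stood further from the other 3 than the 95% limit of Dixon's test allows, which chance passes in about 1 in 20 groups. All named genes were checked, 74 called with both medium arrays and 32 not. At that rate about as many flags as were found would arise by chance. Fosb was highest on 1 array, at 12.04, and Rragd at 5.0. Gzmb was lowest on 1 array, at 6.37, Hcst at 9.44 and Klrk1 at 6.53. The groups with IL-4 and with medium have 2 arrays each and were too small for this check. No explanation of these values was tested.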

How the results depend on the processing

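The counts with both medium arrays held within 1.5 times under the replicate block (173 rises and 82 falls, of which 152 and 68 were among the 174 and 93), other filters, the probe set with the largest variance, another prior and centred arrays. They did not with only the cultured memory arrays in the model (69 and 24) or with array weights (65 and 20), which gave both medium arrays the lowest weight, 0.331. Leaving out 1 array gave 50 to 1641 rises and 16 to 723 falls, the highest being without medium array 1. With medium array 1 only, the counts were 200 and 162 with only the cultured memory arrays, and 58 to 81 rises and 26 to 27 falls with 1 IL-4 array left out. Against IL-7, the main counts of 121 and 54 became 55 and 25 with only the cultured memory arrays, 332 and 262 with array weights, and 39 to 211 and 13 to 139 with 1 array left out. The interaction gave 0 genes in both directions under every alternative with medium array 1 only, and with both medium arrays 0 to 927 higher and 0 to 371 lower when 1 array was left out, the highest without medium array 1. The causes were not tested.

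Named genes that changed sign were, with the lowest and highest change when 1 array was left out, with both medium arrays, Stat6 (-0.26 to 0.22), Nfil3 (-1.97 to 1.86), 1810073O08Rik (-2.78 to 0.26), Cd274 (-0.19 to 1.43), Cyp51 (-0.88 to 1.30), Dusp10 (-0.50 to 3.31), Gzmb (-0.68 to 2.00), Il7r (-1.14 to 0.38), Jak3 (-0.33 to 0.77), Lef1 (-1.05 to 0.0654), Rgs1 (-0.47 to 2.68), Socs3 (-0.62 to 2.46), Tbx21 (-0.0589 to 0.69), Ifng (-1.69 to 0.25) and Prf1 (-1.38 to 0.22), and with medium array 1 only, Hcst (-0.0624 to 0.0034) and Prf1 (-0.0568 to 0.49). Centring turned Hcst to 0.0218 in the fit with medium array 1 only. Deviations of same-numbered arrays correlated at 0.097 between IL-4 and medium, 0.029 between medium and IL-4 with IL-7, and 0.008 between medium and IL-7. The correlations were 0.435 between IL-4 and IL-4 with IL-7, 0.447 between IL-4 and IL-7, and 0.251 between IL-4 with IL-7 and IL-7. So the numbers go together in the pairs of groups without medium. The deviations of medium hold the gap to the array labelled medium, replicate 2, which resembled an ex vivo array. The low correlations with medium therefore cannot decide whether the numbers pair IL-4 with medium. With the replicate block, 62 of 74 named calls with both medium arrays and 63 of 69 with medium array 1 only were kept. It ended the calls of Cd28, Cd86, Dhx58, Dnajb9, Ebp, Fos, Fosb, Gbp6, Ier5, Prdm1, Slfn1 and Socs1 with both medium arrays, and of Ctla2b, Idi1, Il18r1, Il2ra, Il7r and Irf7 with medium array 1 only.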
